A study of Ovis aries with 26 samples.

Results

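The Schwann lineage genes described here were SOX10, FOXD3, CDH19, NGFR, S100B, ERBB3, EGFL8 and GFRA3, which are 8 of the 24478 genes in the single-cell count tables of the developing sheep pancreas. They were listed by name, with earlier results of these data known. Each of the 8 had UMIs (unique molecular identifiers, 1 per captured RNA molecule) in all 23 animals. They were counted in kept barcodes, which had over 200 and under 6000 genes and under 25% of their UMIs from mitochondrial (MT-) genes, and 79510 of the 109501 deposited barcodes were kept. At least 1 member was seen in 27472 kept cells (34.6%), and at least 3 members were seen together in 1518 (1.91%).

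The animals were American Romney sheep (Ovis aries) at 80 days of gestation, 120 days of gestation and term. They were either WT or CFTR-/-, abbreviated CF, which lack the chloride channel that is mutated in cystic fibrosis. There were 4 WT fetuses at 80 days, of which 2 were heterozygous (HZ) and were taken as WT by the study, 3 WT fetuses at 120 days and 4 WT lambs at term. The CF animals were 3 cloned fetuses at 80 days, 4 cloned and 2 naturally bred fetuses at 120 days, and 3 lambs at term, of which 2 were naturally bred and 1 was cloned. Cloned animals came by nuclear transfer from 1 male fibroblast line targeted in CFTR exon 2, so they are not independent draws of a genotype. Genotype and breeding moved together, and at 120 days and term sex did so in part: no WT animal was cloned, all fetuses at 80 days and all cloned animals were male, both naturally bred CF fetuses were female twins, and both naturally bred CF lambs were female. WT animal 3 at term and WT animal 2 at 120 days were also female. The WT fetuses 2 to 4 at 80 days were triplets. CF animals 2 and 3 at 80 days, cloned CF animals 2 and 3 at 120 days and WT animals 1 and 2 at 120 days share an animal number in the study's sample table and may be littermates, while the tests treated every animal as independent. CF and cloning could not be told apart at 80 days.

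Schwann cells are the glia of peripheral nerves and arise from the neural crest through Schwann cell precursors that travel along growing nerves into organs such as the pancreas. The transcription factors SOX10 and FOXD3 act in the neural crest and its glial branch, and CDH19 is a cadherin used as a marker of Schwann cell precursors. NGFR is the low-affinity neurotrophin receptor, ERBB3 is the receptor through which axonal neuregulin supports Schwann cells, and GFRA3 is the co-receptor for artemin. S100B is a calcium-binding protein of glia, and EGFL8 is a secreted protein with EGF-like repeats. Several of these genes are also used outside the nerve: NGFR in mesenchyme, ERBB3 and S100B in epithelium.

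The 26 libraries held 943 to 9543 kept cells each (median 2835.5), and their median depth was 3425 to 24633 UMIs per kept cell. The shallowest and smallest library was cloned CF animal 3 at 120 days. In 3 animals 2 libraries were made, and their values were averaged. Kept barcodes shared by a pair of libraries came to a median of 0.0964% of the smaller library over 325 pairs, with a maximum of 0.458%. P-values below measure the spread between animals, and the confidence intervals of shares (Wilson, 95%) cover counting error only.

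The label was compared with genes other than the members. Their lists were chosen with earlier results of these data known, so this is no independent check. Cells of each age were clustered without the 8 members, and clusters were named from a list of 15 other Schwann genes that includes the lipocalin APOD, the sodium channel SCN7A and the fatty acid binding protein FABP7. In each age 1 cluster took the Schwann-like name, with 10, 9 and 8 of these markers among its 50 highest-ranked genes. Those clusters held 611 cells at 80 days (3.76%), 379 cells at 120 days (1.29%) and 116 cells at term (0.342%). A cell in them had a median of 6 members at 80 days, 4 at 120 days and 3 at term, while its median depth was 8413, 3975 and 2235 UMIs. At 80 days 580 of the 611 cells (94.9%) had at least 3 members, and at term 65 of 116 (56.0%) did. Markers of melanocytes, the other neural crest type that uses SOX10, summed to no more than 20.2 CPM in the Schwann-like cells of any animal. CPM are UMIs of a gene scaled to the same total in every sum of cells. All 6 melanocyte markers were at 0 in both WT fetuses with enough such cells at 80 days. At 80 days neuron markers summed to 318 and 364 CPM in these WT fetuses and 92.4 to 212 CPM in CF. Cells with fewer than 3 members had 18.2 to 63.4 CPM. Stromal markers summed to 4193 to 7998 CPM, beside 3083 to 15719 CPM in those other cells. At 120 days they summed to 3818 to 5975 CPM in WT, beside 418 to 947 CPM. In cloned CF of that age they summed to 3497 to 7641 CPM, beside 167 to 3082 CPM. In 2 CF lambs they summed to 2671 to 5564 CPM, beside 309 to 1094 CPM. Acinar, duct, endocrine, endothelial, immune and erythroid markers were lower than in the other cells at 80 days. Stellate cell markers overlapped the other cells at that age, at 579 to 732 CPM in WT beside 544 to 1309 CPM. In CF they were at 656 to 754 CPM beside 514 to 2364 CPM. At 120 days stellate markers were at 438 to 675 CPM in WT beside 151 to 446 CPM, and 482 to 867 CPM in cloned CF beside 134 to 2451 CPM.

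Members fell into a group that lay almost wholly in the Schwann-like clusters and a group that did not. CDH19 had 97.7%, 96.3% and 93.9% of all its UMIs in these clusters at 80 days, 120 days and term, and FOXD3 had 96.9%, 90.5% and 88.4%. EGFL8 had 92.7% of its UMIs there at 80 days but 66.3% at 120 days and 29.8% at term. SOX10 had 54.9%, 29.7% and 4.82%. The other 4 members lay mostly elsewhere at each age. Their share inside the Schwann-like clusters at 80 days was 47.4% for S100B, 42.2% for NGFR, 23.2% for GFRA3 and 22.4% for ERBB3. All these shares pool the genotypes, and 532 of the 611 Schwann-like cells at 80 days were from CF fetuses. The clusters also held a smaller part of the kept cells at each later age (3.76%, 1.29% and 0.342%). The part of either in these shares was not tested.

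**Figure D1:**
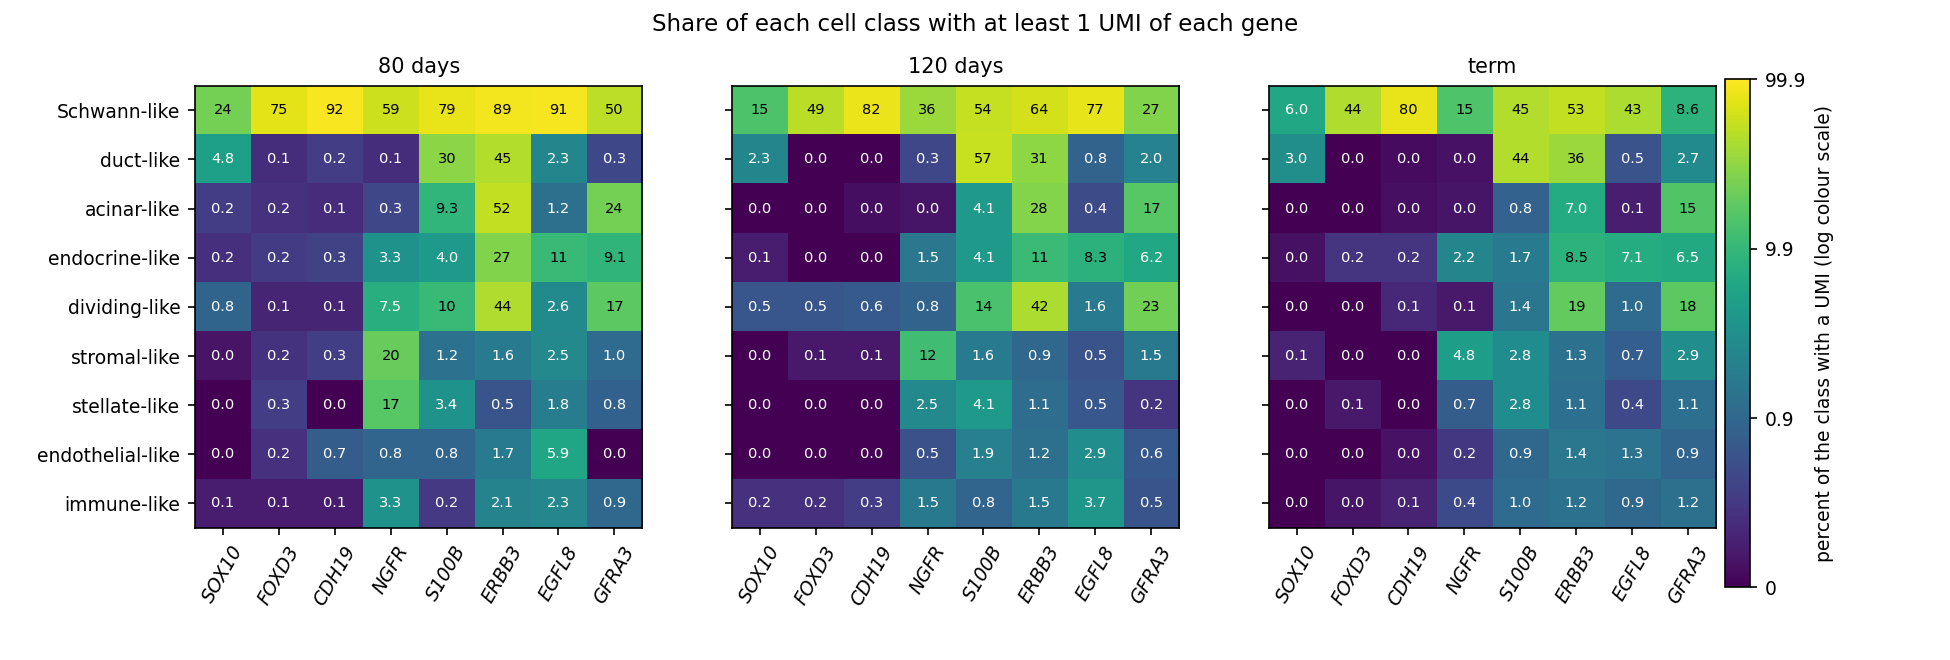
Percent of the cells of each class with at least 1 UMI of each member at 80 days, 120 days and term, with colour on a log10(percent + 0.1) scale; rows are classes and columns are members. CDH19 was seen in 92.1% of Schwann-like cells at 80 days and in at most 0.673% of cells of every other class of that age. ERBB3 was also seen in 52.4% of acinar-like cells and S100B in 29.8% of duct-like cells, without thinning to equal depth.

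Within the Schwann-like cells at 80 days, CDH19 was seen in 92.1% of cells (interval 89.7% to 94.0%), EGFL8 in 91.5%, ERBB3 in 89.4%, S100B in 79.4%, FOXD3 in 75.5% (71.9% to 78.7%), NGFR in 59.1%, GFRA3 in 50.4% and SOX10 in 23.6% (20.4% to 27.1%). SOX10 was thus the member seen least often in these cells. Its level was 28.3 CPM ± 3.89 (SD over the 5 animals with at least 20 such cells). CDH19 was at 470 CPM ± 57.2 and FOXD3 at 229 CPM ± 39.8. These are tag counts from transcript ends, so levels of different genes also carry their capture. At term CDH19 was seen in 80.2% of cells, ERBB3 in 52.6%, S100B in 44.8%, FOXD3 in 44.0%, EGFL8 in 43.1%, NGFR in 14.7%, GFRA3 in 8.62% and SOX10 in 6.03%. These shares move with depth, which was lower at each later age. Thinned to 2000 UMIs per cell, which left 596, 331 and 68 cells, CDH19 was seen in 60.1%, 66.2% and 76.5% of them at 80 days, 120 days and term, FOXD3 in 34.4%, 31.4% and 38.2%, and ERBB3 in 51.0%, 42.6% and 51.5%, so that the lower shares at term were not found at equal depth for these members. NGFR, at 28%, 23% and 11.8%, was lower at each later age at equal depth too. EGFL8 differed between groups. Thinned, it was seen in 54.5%, 76.1% and 50% of 77, 46 and 18 WT cells at the 3 ages. In CF it was seen in 91.3%, 65.8% and 40%, cloned at 120 days, and in 72% of 25 naturally bred cells. S100B and GFRA3 also differed, again with cloned CF at 120 days. Thinned, S100B was seen in 27.3%, 52.2% and 50% of WT and 46.6%, 35% and 38% of CF cells. GFRA3 was seen in 9.09%, 30.4% and 5.56% of WT and 18.3%, 15% and 10% of CF cells. These shares pool cells, of which 532 of 611 were from CF fetuses at 80 days, and were not tested.

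Outside the Schwann-like clusters the members were seen in named pancreatic classes, given first as shares of the pooled cells. ERBB3 was seen in 52.4% of acinar-like cells at 80 days, 27.7% at 120 days and 6.99% at term, and in 45.0%, 31.2% and 35.7% of duct-like cells. S100B was seen in 29.8%, 56.6% and 44.4% of duct-like cells. GFRA3 was seen in 23.7%, 16.6% and 15.1% of acinar-like cells. The pooled acinar-like values at term rested on WT animal 2, with 3045 of the 6293 cells: over the 7 lambs the median was 4.03% for GFRA3 (1.23% to 28.9%) and 4.36% for ERBB3 (1.10% to 14.9%). NGFR was seen in 20.1% of stromal-like and 16.5% of stellate-like cells at 80 days, and in 4.76% and 0.659% at term. EGFL8 was seen in 10.7%, 8.26% and 7.08% of endocrine-like cells. FOXD3 and CDH19 gave a background against which these can be read: at 80 days their share was 0.149% and 0.247% in duct-like cells (median depth 12571 UMIs) and 0.167% and 0.139% in acinar-like cells (26218 UMIs).

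SOX10 was also found in duct-like cells, in all 23 animals. Its share among duct-like cells ran from 0.634% to 5.98% (median 2.84%). It lay above the share in acinar-like cells in 23 of 23 animals, though only 8 of the 9 animals at 120 days had at least 20 acinar-like cells. SOX10 was seen in 97 of 2021 duct-like cells at 80 days, 137 of 5959 at 120 days and 141 of 4769 at term. In acinar-like cells, which were deeper at 26218, 31582 and 19617 median UMIs against 12571, 8671 and 9747 in duct-like cells, SOX10 was seen in 9 of 3601 cells, 0 of 6474 and 0 of 6293. No endothelial-like cell of any animal had a SOX10 UMI. The duct-like SOX10 cells did not carry the other neural crest members: CDH19 or FOXD3 was seen in 2 of 97, 0 of 137 and 0 of 141 of them, against 143 of 144, 51 of 55 and 6 of 7 of the SOX10 cells in the Schwann-like clusters. S100B was seen in 35.1%, 60.6% and 49.6% of them, beside 29.8%, 56.6% and 44.4% of all duct-like cells. Most had a single SOX10 UMI (86, 133 and 132 cells). The duct-like clusters thus held 97, 137 and 141 cells with SOX10, beside 144, 55 and 7 in the Schwann-like clusters.

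Co-detection followed the same division. At 80 days, 445 of the 491 cells with FOXD3 also had CDH19 (90.6%), against 0.958% of the cells without FOXD3. Of the 596 cells with CDH19, 74.7% had FOXD3, 90.8% had EGFL8 and 24.7% had SOX10. Of the 273 cells with SOX10, 53.8% had CDH19 and 43.6% had FOXD3. By contrast, 9.36% of the 4656 cells with ERBB3 and 14.8% of the 1682 cells with GFRA3 had FOXD3. FOXD3 and CDH19 were also found together at later ages, with CDH19 in 82.1% of 201 FOXD3 cells at 120 days and in 81.0% of 58 at term. SOX10 was seen with CDH19 in 24.6% of 207 cells at 120 days and in 3.23% of 155 cells at term. All these shares pool the animals of an age. The cells with CDH19 at 80 days numbered 34, 10, 13 and 18 in the WT fetuses and 239, 55 and 227 in the CF fetuses. Of the cells with SOX10, 97, 137 and 141 were duct-like at 80 days, 120 days and term. The part of genotype, depth and duct-like cells in the co-detection shares was not tested.

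**Figure D2:**
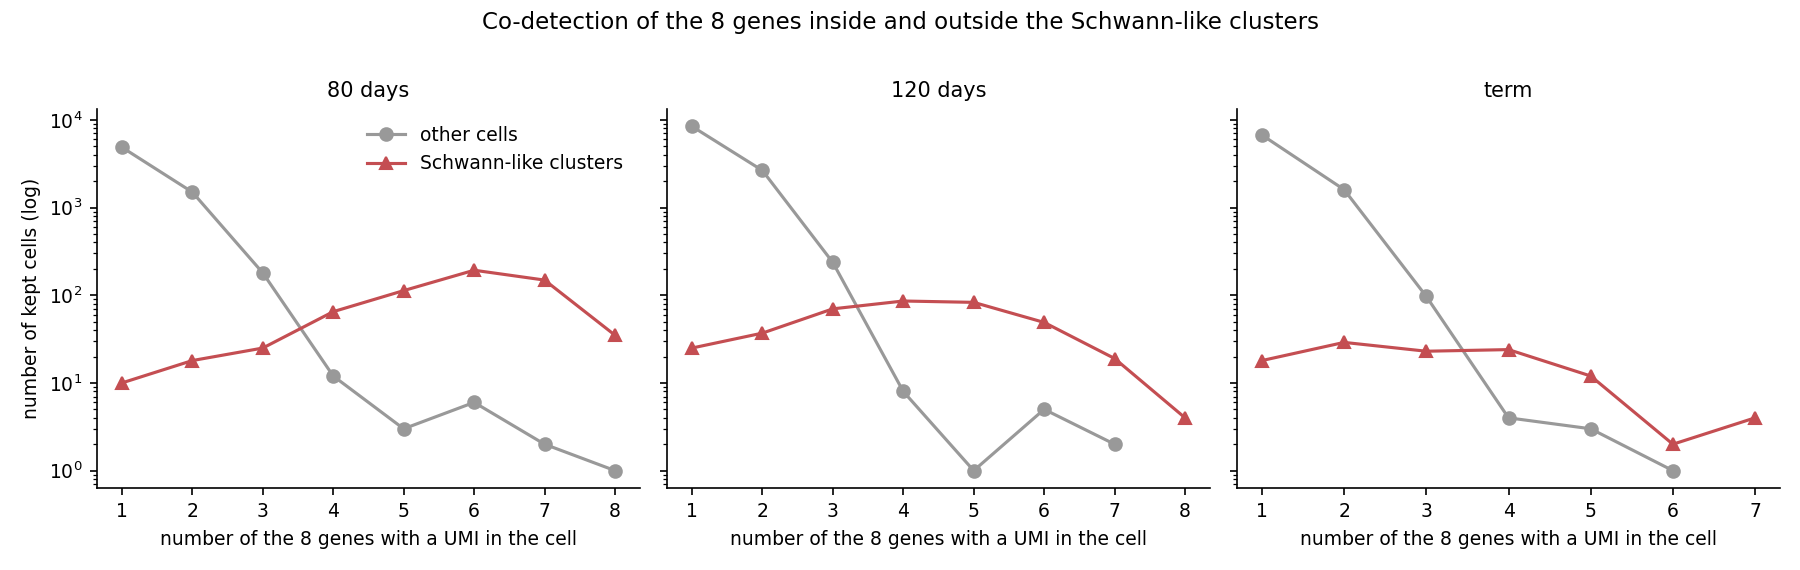
Number of kept cells, on a log axis, by how many of the 8 members had a UMI in the cell, at 80 days, 120 days and term; triangles are cells of the Schwann-like clusters and circles all other cells, and counts of 0 are not drawn. At 80 days, 193 of the 199 cells with 6 members were Schwann-like, against 25 of the 205 cells with 3 members.

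The combination of at least 3 members also took in cells of other classes. Of the 784, 564 and 170 cells with at least 3 members at 80 days, 120 days and term, 74.0%, 55.1% and 38.2% lay in the Schwann-like clusters. These pooled values carry the mix of groups, since 641 of the 784 cells at 80 days were from CF fetuses: the WT values were 46.2%, 44.8% and 27.8%, and those of CF were 80.2% at 80 days, 68.9% in cloned and 22.3% in naturally bred fetuses at 120 days, and 47.3% at term. Of the other classes the largest was acinar-like at 80 days (92 cells, 11.7%) and duct-like at 120 days (107 cells, 19.0%). At term it was also duct-like (66 cells, 38.8%), beside 65 Schwann-like cells. The set S100B, ERBB3 and GFRA3 with no other member was found in 95, 153 and 41 cells, none of them Schwann-like, and the set SOX10, S100B and ERBB3 in 27, 35 and 31 cells, none of them Schwann-like. At the other end, all 8 members were found in 36 cells at 80 days, 35 of them Schwann-like. At least 2 of SOX10, FOXD3 and CDH19, a criterion added after the values were seen, picked 479, 190 and 51 cells, of which 96.7%, 95.3% and 94.1% were Schwann-like. Both criteria are given below.

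At 80 days, cells with at least 3 members made up 2.22%, 1.67%, 1.5% and 1.38% of kept cells in the 4 WT fetuses and 12.9%, 4.24% and 8.39% in the 3 CF fetuses. Every CF fetus lay above every WT fetus. The means were 8.52% ± 4.35 (SD, n = 3) in CF and 1.69% ± 0.372 (n = 4) in WT, a 5.03-fold difference (log2 2.33). The exact two-sided permutation test over animals gave p = 0.0571, the smallest value that 3 animals against 4 can give, and 0.309 after Benjamini-Hochberg adjustment over 54 tests (8 members and the combination, in 6 comparisons). No test of a share reached the 0.05 threshold in this design. In cells these shares were 57, 21, 23 and 42 cells in WT and 261, 113 and 267 in CF. With at least 2 of SOX10, FOXD3 and CDH19 the shares were 1.05%, 0.477%, 0.781% and 0.362% in WT and 9.51%, 1.69% and 5.84% in CF (log2 3.09, exact permutation p = 0.0571).

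**Figure D3:**
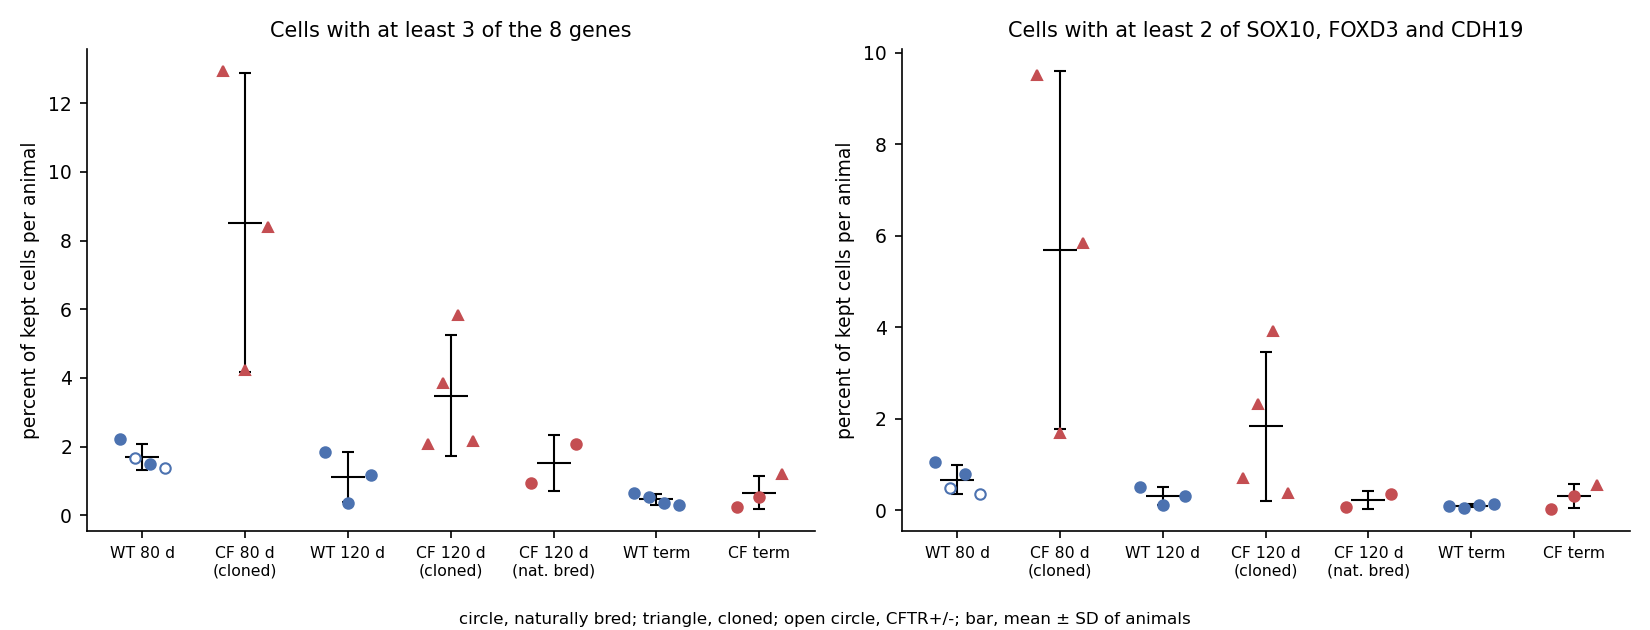
Percent of kept cells with at least 3 of the 8 members (left) and with at least 2 of SOX10, FOXD3 and CDH19 (right), on a linear axis, 1 point per animal by age, genotype and breeding (triangles cloned, circles naturally bred, open circles heterozygous), with the mean ± SD of the animals as bars. The 3 CF fetuses at 80 days lay at 4.24% to 12.9% on the left, above the 4 WT fetuses at 1.38% to 2.22%; at term the groups overlapped.

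The members differed in how clearly they followed this. FOXD3 was seen in 1.09%, 0.557%, 1.11% and 0.362% of cells in the WT fetuses and in 9.42%, 1.88% and 5.91% in the CF fetuses (7.36-fold). CDH19 was seen in 1.33%, 0.796%, 0.846% and 0.592% in WT and in 11.8%, 2.07% and 7.13% in CF (7.88-fold). SOX10 was seen in 0.858%, 0.398%, 0.586% and 0.790% in WT and in 4.06%, 1.43% and 2.92% in CF (4.26-fold). In all 3 genes CF animal 2 was the lowest CF fetus and still lay above the WT range. S100B, seen in 9.86%, 4.93%, 5.6% and 5.73% of WT and 16.9%, 15.6% and 16% of CF cells, also did not overlap. Non-overlap with CF above was thus found for 4 of the 8 members, beside 9.04% of the 19537 genes compared in the same way, no member lay wholly below, beside 3.54%, and the exact permutation p was 0.0571 for each.

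NGFR and EGFL8 had higher means in CF but overlapping ranges at 80 days. NGFR was seen in 3.90%, 4.61%, 6.44% and 3.32% of WT cells and 18.4%, 6.09% and 11.8% of CF cells, and EGFL8 in 3.35%, 3.90%, 4.88% and 3.29% of WT and 18.5%, 4.36% and 11.4% of CF cells (exact permutation p = 0.114 for both). In each gene the overlap came from CF animal 2 and WT animal 3. ERBB3 averaged 30.3% ± 6.86 in CF (n = 3) and 26.0% ± 7.51 in WT (n = 4), and GFRA3 10.5% ± 1.17 and 9.70% ± 2.85, differences within the spread between animals. The median log2 ratio of the 8 members was 1.49, beside 0.09 over all genes. The members were chosen with earlier results of these data known, so setting them beside all genes is a description only. FOXD3, NGFR and S100B are among the study's own markers of a cluster over-represented in CF at 80 days. After each cell was thinned to 2000 UMIs, leaving out 9.68% of WT and 5.94% of CF cells as too shallow, the share with at least 3 members was 0.553% in WT and 5.64% in CF.

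**Figure D4:**
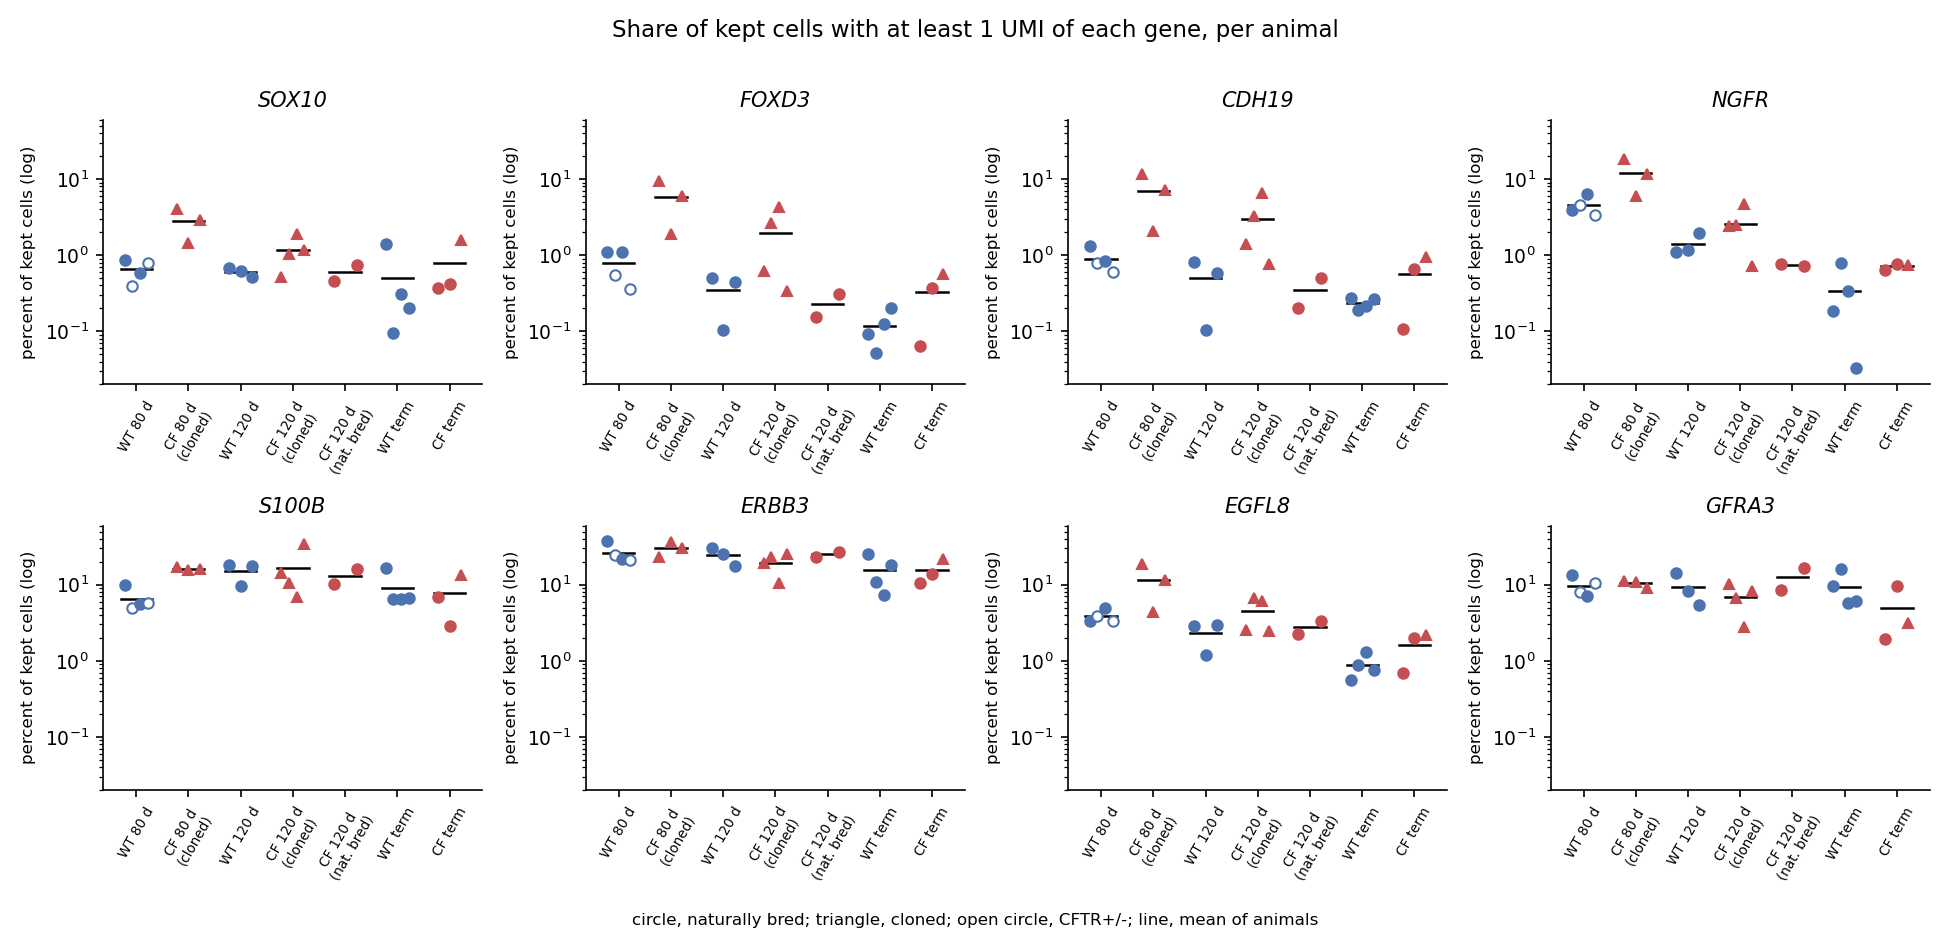
Percent of kept cells with at least 1 UMI of each of the 8 members, on a log axis, 1 point per animal in the 7 groups. CDH19 was seen in 11.8% of cells of CF animal 1 at 80 days and in 0.189% to 0.277% of cells of the WT lambs at term, while CF and WT overlapped at every age for ERBB3 and GFRA3.

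At 120 days the cloned CF fetuses lay above WT for the combination of at least 3 members, but not by every criterion. Cells with at least 3 members were 1.83%, 0.360% and 1.17% of cells in the WT fetuses and 2.09%, 3.87%, 5.83% and 2.16% in the cloned CF fetuses, with means of 1.12% ± 0.738 (n = 3) and 3.49% ± 1.77 (n = 4) and no overlap (log2 1.64, exact permutation p = 0.0571). The separation depended on the criterion. With at least 2 of the 8 members the log2 ratio was 0.0402 (exact permutation p = 0.8), and with at least 4 of 8, without ERBB3 or after thinning to 2000 UMIs it was 2.17, 2.24 and 2.42, with overlapping animals (exact permutation p = 0.171 each). The animals did not overlap with all deposited barcodes (1.53), under 10% MT- UMIs (1.71), without the 5% of cells with most UMIs (1.79) or for cells of the Schwann-like clusters, which were made without the members (2.83; exact permutation p = 0.0571 each). The highest value came from animal 3, the shallowest library, and without it the log2 ratio was 1.27. In 36 of the 105 cells of WT fetuses and 56 of the 347 cells of cloned CF fetuses the combination was S100B, ERBB3 and GFRA3 without another member. With at least 2 of SOX10, FOXD3 and CDH19 the values were 0.496%, 0.103% and 0.304% in WT and 0.702%, 2.33%, 3.92% and 0.379% in cloned CF, where animal 4 lay inside the WT range (log2 2.60, exact permutation p = 0.114). Across single members, 6 of 8 means were higher in cloned CF and none of the 8 separated the groups, beside 3.98% of 19240 genes wholly above and 2.45% wholly below.

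CDH19 showed how uneven the cloned fetuses were. It was seen in 0.802%, 0.103% and 0.585% of WT cells and in 1.40%, 3.27%, 6.57% and 0.758% of cloned CF cells, so that animals 1 to 3 lay above and animal 4 within the WT range. FOXD3 had the same pattern, at 0.627%, 2.63%, 4.35% and 0.341% against 0.496%, 0.103% and 0.445% in WT. S100B was lowest in animal 3, at 6.89% of cells, and highest in animal 4, at 34.0%. Cloned CF animal 4 also had the largest duct-like share of its age, 45.5% of cells, and duct-like cells were the class with most S100B; the part of this in the S100B share was not tested.

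The 2 naturally bred CF fetuses at 120 days overlapped WT. Their share of cells with at least 3 members was 0.948% and 2.09%, beside 0.360% to 1.83% in WT, and their share with at least 2 of SOX10, FOXD3 and CDH19 was 0.0769% and 0.362%, beside 0.103% to 0.496%. CDH19 was seen in 0.205% and 0.501% of their cells and FOXD3 in 0.154% and 0.306%. NGFR, at 0.769% and 0.724%, lay below the 3 WT fetuses at 1.11%, 1.18% and 1.97%, beside 19.9% of 18513 genes that did so, and no member lay wholly above, beside 6.2%; with 2 animals against 3 the exact permutation test cannot go below p = 0.2. With all 6 CF fetuses of this age together the log2 ratio for at least 3 members was 1.34 (exact permutation p = 0.0714). Cloned and naturally bred CF fetuses differed in sex as well, so breeding and sex cannot be told apart here.

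At term the cells were rare in both genotypes. Cells with at least 3 members were 0.647%, 0.534%, 0.370% and 0.299% of cells in the WT lambs (7, 51, 12 and 9 cells) and 0.247%, 0.537% and 1.19% in the CF lambs (23, 19 and 49 cells). The means of 0.463% ± 0.158 (n = 4) and 0.658% ± 0.484 (n = 3) differed by less than the spread between animals (exact permutation p = 0.629). The highest value was that of animal 3, the only cloned lamb, and with the 2 naturally bred lambs alone the log2 ratio was -0.24. With at least 2 of SOX10, FOXD3 and CDH19 the values were 0.0924%, 0.0524%, 0.123% and 0.133% in WT and 0.0320%, 0.311% and 0.558% in CF. Here 2 of the 3 CF lambs lay above and 1 below all WT lambs. None of the 8 members separated the groups, beside 8.38% of 19406 genes wholly above and 1.95% wholly below.

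SOX10 and S100B at term were carried by single animals. SOX10 was seen in 1.39% of cells of WT animal 1 and in 0.0943%, 0.308% and 0.199% of the other WT lambs, and in 0.374%, 0.424% and 1.58% of the CF lambs. S100B was seen in 16.6% of cells of WT animal 1, in 6.5% to 6.75% of the other WT lambs and in 6.97%, 2.82% and 13.6% of the CF lambs. WT animal 1 and CF animal 3 were also the lambs with the most duct-like cells of their genotype, 29.8% and 38.3%, beside 8.56% to 11.8% in the other WT lambs. The part of the duct-like share in these values was not tested.

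With age the members differed in WT. In WT, NGFR went from 3.32% to 6.44% of cells at 80 days to 1.11% to 1.97% at 120 days and 0.0332% to 0.796% at term, without overlap at either step, and EGFL8 from 3.29% to 4.88% at 80 days to 1.18% to 2.97% at 120 days. These 2 of 8 members lay wholly below at 120 days, beside 28.3% of 19205 genes, and none wholly above, beside 1.25%; NGFR alone lay wholly below at term, beside 9.75% of 19040 genes, and none wholly above, beside 1.8% (exact permutation p = 0.0571 in each case). FOXD3 averaged 0.779%, 0.348% and 0.117% of WT cells and CDH19 0.890%, 0.497% and 0.237%, with overlapping ranges at each step. S100B averaged 6.53% ± 2.25 (n = 4) at 80 days and 15.1% ± 4.89 (n = 3) at 120 days, the only member with a higher mean at 120 days (exact permutation p = 0.114). The median log2 ratio of the members from 80 to 120 days was -0.42, and that of all genes was also -0.42, so the median member moved as the median gene did. From 120 days to term the medians were -0.90 and -0.18.

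In the cloned CF fetuses NGFR was also the member that fell without overlap, from 18.4%, 6.09% and 11.8% at 80 days to 2.45%, 2.48%, 4.77% and 0.720% at 120 days, beside 34.7% of 19626 genes, and no member rose without overlap, beside 0.657%. The share of cells with at least 3 members averaged 8.52% and 3.49% (log2 -1.29, exact permutation p = 0.114). The median log2 ratio of the members was -1.25, against -0.51 over all genes. Thus in both genotypes NGFR was seen in a lower share of cells at 120 days than at 80 days, as were many other genes.

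The number of UMIs per tissue gave the same members a test across all genes. UMIs of all kept cells were summed per animal and the 23 animals were fitted together over 18574 genes with edgeR's quasi-likelihood test and Benjamini-Hochberg adjustment; in such sums more cells of a type and more RNA per cell cannot be told apart. EGFL8 was at 5.38, 6.45, 10.4 and 4.70 CPM in the WT fetuses at 80 days and at 214, 19.3 and 110 CPM in the CF fetuses, without overlap. It rose by 3.83 on the log2 scale (SE 0.665, adjusted p = 0.0253), and it was the only member called, beside 0.0915% of all genes. The call was lost without WT animal 1, 2, 3 or 4 (adjusted p = 0.0768, 0.111, 0.0961 and 0.122) and without CF animal 1 or 3 (0.147 and 0.104), and without CF animal 1 the difference was 2.84. It was also lost with the animal number as a replicate block (log2 3.51, edgeR adjusted p = 0.139). CDH19 had a log2 difference of 3.31 (adjusted p = 0.155), FOXD3 of 3.19 (0.187), SOX10 of 2.08 (0.233), S100B of 1.92 (0.181), NGFR of 1.70 (0.489), ERBB3 of 0.44 (0.731) and GFRA3 of 0.21 (0.972). DESeq2 called 4 members, EGFL8, CDH19, S100B and FOXD3, beside 1.17% of 18463 genes (216).

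At 120 days no member was called between cloned CF and WT by edgeR, and no gene of the 18574 was (2866 genes had an unadjusted p under 0.05); CDH19 had the largest member difference, 2.91 (SE 0.933, adjusted p = 0.234), and DESeq2 called CDH19 alone of the members, beside 1.17% of 18104 genes (212). At term no member was called, beside 2.59% of genes, with adjusted p from 0.173 for GFRA3 (log2 -1.32) to 0.991 for ERBB3. The naturally bred fetuses gave no call either, beside 0.0485% of genes. Between ages in WT no member was called, beside 0.431% of genes from 80 to 120 days and 10.5% from 120 days to term; S100B came nearest, with a log2 difference of 2.11 at 120 days (adjusted p = 0.0866), and was called by DESeq2, beside 2.97% of genes. In cloned CF, EGFL8 fell by 2.85 on the log2 scale from 80 to 120 days (SE 0.643, adjusted p = 0.0401), 1 member of 8 beside 0.991% of genes. That call was lost without CF animal 1 at 80 days (-1.86, 0.218) or CF animal 3 (0.0912), without cloned animal 1, 2 or 4 at 120 days (0.0835, 0.0709 and 0.105) and with the replicate block (0.0946), while NGFR (-2.10, adjusted p = 0.129) gained a call without cloned animal 3, the shallow library (-2.79, adjusted p = 0.0429). The CF difference at 80 days minus that at 120 days or at term gave no call for any member, so a change of the difference with age was not shown.

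A second fit took the Schwann-like cells alone, in the animals with at least 20 of them, and asked for the level of each member per UMI in those cells. It had 2 WT and 3 CF fetuses at 80 days, 2 WT and 4 cloned CF fetuses at 120 days and 2 CF lambs, and tested 5691 genes. EGFL8 was at 631 and 766 CPM in WT animals 1 and 4 at 80 days and at 2170, 1337 and 2127 CPM in the CF fetuses. No overlap was seen, but the edgeR difference of 1.39 (SE 0.378) had an adjusted p of 0.115. At 120 days it was at 937 and 690 CPM in WT and 906, 813, 623 and 620 CPM in cloned CF, and in the 2 CF lambs at 297 and 438 CPM.

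After EGFL8 the differences at 80 days were largest for S100B and GFRA3. S100B was at 113 and 171 CPM in WT and 307, 305 and 318 CPM in CF (log2 1.11, adjusted p = 0.230), and GFRA3 at 48.5 and 40.7 CPM in WT and 109, 74.7 and 91.4 CPM in CF (log2 1.00, adjusted p = 0.410). The differences of CDH19 and FOXD3 were smaller: CDH19 was at 392 and 448 CPM in WT and 481, 482 and 549 in CF (log2 0.22), and FOXD3 at 210 and 187 in WT and 212, 245 and 290 in CF (log2 0.26). SOX10 at 24.3 and 24.4 against 30.2, 33.2 and 29.5 CPM differed by 0.30. ERBB3 (log2 -0.17) and NGFR (-0.23) overlapped. Some marker sums of other cell types did not overlap in the same cells. Stromal markers were at 4193 and 4718 CPM in WT and 6577 to 7998 CPM in CF. Duct markers were at 32.6 and 48.5 CPM in WT and 83.0 to 199 CPM in CF. Neuron markers were lower in CF, at 92.4 to 212 CPM beside 318 and 364 CPM in WT. Their part in the differences of the members was not tested. No member was called by edgeR, beside 0.334% of genes; DESeq2 called EGFL8, beside 1.03% of 5346 genes. The share of cells with CDH19 at 80 days differed by 2.98 on the log2 scale (7.88-fold), over 4 WT and 3 CF fetuses. The CDH19 level in Schwann-like sums differed by 0.22, over 2 WT and 3 CF fetuses, also without overlap. The part of cell number and of level per cell was not tested.

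**Figure D5:**
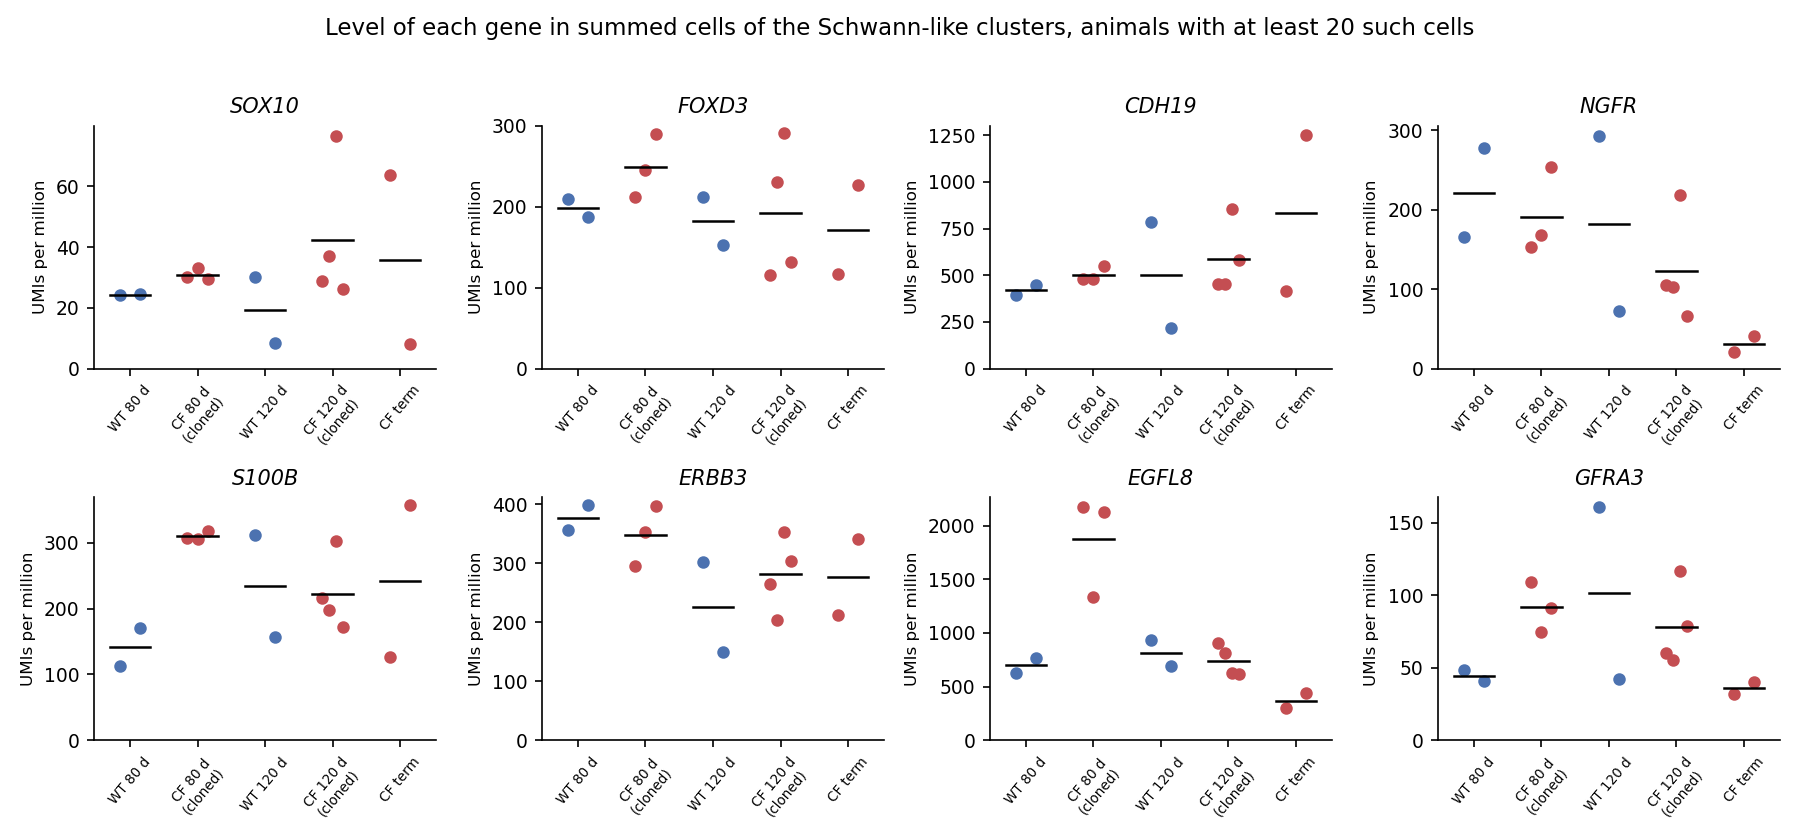
Level of each member in the summed Schwann-like cells of each animal with at least 20 such cells, in CPM on linear axes from 0, 1 point per animal by group, with the group mean as a line. EGFL8 lay at 1337 to 2170 CPM in the 3 CF fetuses at 80 days against 631 and 766 CPM in the 2 WT fetuses, while CDH19 lay at 481 to 549 CPM against 392 and 448 CPM.

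In the same fit EGFL8 fell between 80 and 120 days in cloned CF, by 1.14 on the log2 scale (SE 0.297, adjusted p = 0.0476), 1 member of 8 beside 2.83% of genes. Its call was lost with the animal number as a replicate block (adjusted p = 0.127) and with animals of at least 10 cells (0.211). In 6 of the 7 fits that left out 1 animal, without CF animal 1 or 3 at 80 days or any 1 of the 4 cloned animals at 120 days, 0 members were called. Acinar markers rose in the same cells, with all 9 tested higher and 3 called (CLPS, SYCN and AQP8; median log2 4.13); the 10 in the tables summed to 48.0 to 159 CPM in the 3 CF fetuses at 80 days and 87.5 to 4769 CPM in the 4 cloned fetuses at 120 days, with PNLIP at 0 in every animal of both groups. Their part in the fall of EGFL8 was not tested. No member was called between cloned CF and WT at 120 days, beside 0.0176% of genes, or between ages in WT, beside 0.0527%. The difference of the CF effects between 80 and 120 days was 1.81 for EGFL8 (SE 0.503), with an unadjusted p of 0.00215 and an adjusted p of 0.347 by edgeR. At term no WT lamb had 20 Schwann-like cells (3, 16, 7 and 11). With animals of at least 10, which left 2 WT and 3 CF lambs, no member of the 7 tested was called by edgeR between CF and WT (adjusted p from 0.824 for NGFR, log2 2.44, upwards) or in WT from 120 days to term, where NGFR came nearest (-3.81, adjusted p = 0.203).

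Cycling genes moved in the same cells. The 10 genes of the dividing list summed to 137 and 440 CPM in the Schwann-like cells of the 2 WT fetuses at 80 days, 662 to 2182 CPM in the 3 CF fetuses and 26.4 to 179 CPM in the 4 cloned CF fetuses at 120 days. From 80 to 120 days in cloned CF, 9 of the 9 tested genes of that list fell, among them TOP2A, the DNA topoisomerase of dividing cells (log2 -5.99, edgeR adjusted p = 2.91e-05), and MKI67 (-4.65, 0.0339). Between CF and WT at 80 days 1 of 9 was called, UBE2C, higher by 3.70 (adjusted p = 0.0333), and all 9 were higher. Of the 15 Schwann genes used for naming, FABP7, a marker of Schwann cell precursors, and CRYAB, a small heat shock protein, rose at 80 days by 3.03 (adjusted p = 0.0359) and 3.34 (0.0333); the naming list included both. FABP7 fell by 2.81 from 80 to 120 days in cloned CF (adjusted p = 0.00294). CRYAB also rose in WT from 80 to 120 days, by 4.63 (edgeR adjusted p = 0.0124), as 1 of 3 genes called there. These genes were picked after their values were seen.

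Genes that mark the stages of Schwann cell development were read as levels in the pooled Schwann-like cells. MBP, a compact myelin protein of mature Schwann cells, was at 0.172 CPM at 80 days, 17.0 CPM at 120 days and 0 at term, from 1, 33 and 0 UMIs. PMP22, a myelin protein also made outside myelin, was at 1133, 1063 and 1751 CPM. The precursor factors SOX2 and TFAP2A were at 116 and 46.9 CPM at 80 days, 72.2 and 18.1 CPM at 120 days and 102 and 29.0 CPM at term, beside 0.119 and 0.0213 CPM in the cells with fewer than 3 members at 80 days. They are 2 of the 10 precursor genes listed, and others did not stand this way: SOX9 was at 8.94 CPM in the Schwann-like cells at 80 days and 164 CPM in the cells with fewer than 3 members, and SNAI2, from 2 UMIs, at 0.344 and 0.762 CPM. APOD was at 745 CPM at 80 days, 755 CPM at 120 days and 8280 CPM at term, in 116 cells of 7 lambs. These pooled values have no replicate error.

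The partners of the receptors among the members were unevenly present. For ERBB3, its co-receptor ERBB2 was at 7.22, 10.3 and 14.5 CPM in the Schwann-like cells at 80 days, 120 days and term, and the ligand NRG1 had 5 UMIs in these cells at 80 days, 1 at 120 days and 0 at term. For GFRA3, the signalling receptor RET was near absent there, at 1.2, 1.55 and 2.90 CPM, beside 8.50, 4.95 and 9.11 CPM in cells with fewer than 3 members, while its ligand ARTN was at 20.5, 18.6 and 5.81 CPM, beside 0.792, 0.169 and 0.347 CPM. GFRA1, a relative of GFRA3, was at 253, 264 and 282 CPM. For NGFR, the receptor NTRK2 was at 39.2, 54.2 and 31.9 CPM. At term the Schwann-like sum came from 116 cells with a median of 2235 UMIs. Low values there, such as those of RET and ARTN, rest on few UMIs and do not show a change with age.

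Between CF and WT the pathway lists gave few calls in the cells with at least 3 members. In that fit of 10684 genes, which left out the members, 27 genes were called at 80 days (0.253%), 16 higher and 11 lower in CF. That count was 3 without CF animal 1, 191 without CF animal 2, 12 without CF animal 3, and 9, 8, 7 and 13 without WT animals 1 to 4. The myelin list had 10 genes tested, 8 higher and none called, with a median log2 difference of 1.19, and the crest and precursor list had 6 tested, 5 higher and none called (1.17). The injury and repair list had 10 tested and 8 higher (0.77), the GDNF family list 5 tested and 4 higher (0.97), the neurotrophin list 5 tested and all higher (0.86), and the neuregulin list 1 tested and lower, with none called; the median of all genes was 0.00. The naming list had 15 of 15 higher (median 1.39) with CRYAB called, and a list that the study itself chose on these samples had 12 of 14 higher (0.76) with CRYAB called. The Schwann-like share of the cells with at least 3 members was 46.2% in WT and 80.2% in CF at 80 days, and endocrine markers went the other way, with 0 of 13 higher in CF (median -1.75). Their summed level was 3762 to 69893 CPM in the 4 WT and 4254 to 7495 CPM in the 3 CF fetuses, with none of the 13 at 0 in every animal of either group. Their part in the list values was not tested.

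The 10 stromal markers tested were all higher in CF in those cells at 80 days (median 1.83), with the matrix gene OGN called (3.76, edgeR adjusted p = 0.0267). The 12 stromal markers in the tables summed to 814 to 2216 CPM in the 4 WT and 2575 to 6498 CPM in the 3 CF fetuses, with PDGFRA at 0 in all WT fetuses. Other called genes, picked after their values were seen, were ABCA10 (5.55, adjusted p = 0.00888), APOE (3.69, 0.0204), SNCG (3.78, 0.0453) and STMN2 (4.98, 0.0453), and lower in CF the epithelial genes CLDN18 (-3.06, 0.0267) and FXYD3 (-2.89, 0.0453). The heat shock genes HSPA6 (3.66, 0.0192), BAG3 (3.37, 0.0173) and DNAJB1 (2.04, 0.0341) were also called. HSPA6 was at 20.9 to 215 CPM in WT and 1067 to 1579 CPM in CF in these cells, and in the cells of the same animals with fewer than 3 members at 104 to 170 CPM in WT and 755 to 1297 CPM in CF. In the cells with fewer than 3 members BAG3 was at 28.6 to 52.2 CPM in WT and 223 to 476 CPM in CF, and DNAJB1 at 298 to 534 and 769 to 1415 CPM. All 3 genes thus lay higher in the CF fetuses both in cells with at least 3 members and in cells with fewer. At 120 days no gene was called between cloned CF and WT (901 had an unadjusted p under 0.05; DESeq2 called 6). The other comparisons of these cells gave few calls, and the genes were named after their values were seen. In WT from 80 to 120 days 5 genes were called (0.0468%): HSPA6 (4.38, edgeR adjusted p = 0.0360), DNAJB1 (2.35, 0.0493), CRISP2 and EEPD1 rose and AMIGO2 fell. In cloned CF between these ages 2 were called (0.0187%), LOC101117955 rising and BASP1 falling. MAFG, SERTAD1, CDKN1A, IFRD1 and LOC105608624, 5 genes (0.0468%), were lower in the naturally bred CF fetuses than in WT. These calls depended on single animals. None of the 5 calls in naturally bred CF was left without any 1 of the 4 animals of that comparison, and 0 to 2 genes were called in WT by age and 0 to 178 in cloned CF by age when 1 animal was left out.

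As a description, genes other than members were ranked by the ratio of cells with at least 3 members to the other cells of the same animal. Among the highest at 80 days were APOD (mean log2 ratio 3.39 over 7 animals), CRABP1 and RLBP1 (both 2.86), LRRTM1 (2.84), ADAMTS5 (2.80), the endothelin receptor EDNRB (2.77) and LOC101115527 (2.75). Among the highest at 120 days were APOD (2.24 over 8 animals) and PMP22 (2.20), followed by LOC101115527, TSC22D4, SH3PXD2A, MATN2 and GPM6B. At term, with 3 animals, APOD (3.21) and APOE (2.55) led, followed by TSC22D4, LOC101115527, PMP22, SCN7A, ANK3, AGT, SLC4A4 and CPB2.

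Across the 23 animals the summed tissue level of the members was most like that of CRYM (Pearson r of log2(CPM + 1) 0.969), SLC35F1 (0.959), CMTM5 (0.954), RLBP1 (0.953) and C9H8orf89 (0.952). Among the members themselves the tissue level of CDH19 was most like that of FOXD3 (0.986), EGFL8 (0.953), SOX10 (0.939) and NGFR (0.907), and less like ERBB3 (0.757), S100B (0.560) and GFRA3 (0.492). The animals share age and genotype groups and differ in depth, so these values are a description of how the genes varied together.

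Each member was also read among cells chosen by the others, so that it did not choose its own cells. These shares pool the cells of a genotype, which are not replicates, and were not tested. Among cells with at least 3 of the other 7 members at 80 days, FOXD3 was seen in 45 of 137 WT cells (32.8%) and 407 of 632 CF cells (64.4%). CDH19 was seen in 43.6% of 133 and 77.9% of 630, EGFL8 in 40.3% of 119 and 82.9% of 608, and SOX10 in 11.5% of 131 and 21.2% of 623. In cells with none of the other members FOXD3 was seen in 0.0597% of WT and 0.148% of CF cells. At term FOXD3 was seen in 14.1% of 78 WT and 28.9% of 83 CF cells, and SOX10 in 0 of 71 WT cells, which allows a share of cells with a SOX10 UMI of up to 5.13% and sets no limit on the share that express it, and in 5 of 67 CF cells. The cells of each of these groups came from 3 or 4 animals, and the groups differed in how many such cells were Schwann-like: of the cells with at least 3 of all 8 members, 46.2% in WT and 80.2% in CF were so at 80 days and 27.8% and 47.3% at term. By animal at 80 days this Schwann-like share was 49.1%, 38.1%, 56.5% and 40.5% in WT and 92.3%, 47.8% and 82.0% in CF.

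Barcodes outside the limits were not free of these cells. Among the barcodes not kept at 80 days, at least 3 members were seen in 1.49%, 4.21%, 8.62% and 4.12% in WT and 6.5%, 6.71% and 8.30% in CF. With all deposited barcodes the log2 ratio for at least 3 members at 80 days was 1.88, beside 2.33 in kept cells, and the animals still did not overlap (exact permutation p = 0.0571).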

How the data were processed

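Single-cell suspensions of fresh pancreas, made with collagenase, red blood cell lysis and Accutase, were run as 26 10x Genomics 3' libraries. Counts were deposited by the authors as raw UMI counts per gene and barcode; the submitters' processing notes name Cell Ranger 3.1.0 and the sheep build Oar_v4.0. Of 24478 genes, 8432 have only a LOC name and 13 are MT- genes.

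Groups came from the GEO labels; cloning and natural breeding came from the study's sample table, matched by library. The members and lists were chosen with earlier results of these data known. Barcodes with over 200 and under 6000 genes and under 25% MT- UMIs were kept. Doublets were not called or removed; leaving out the 5% of cells with most UMIs was tried instead. Clustering used scanpy 1.11.5 per age (2000 variable genes, 30 components, Leiden resolution 1, seed 88), without the members and ribosomal protein genes. Clusters were named for whichever marker list had the largest fraction of its genes in their top 50, and stayed unnamed with fewer than 3.

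Shares were compared per animal with exact two-sided permutation tests (scipy 1.17.1), Benjamini-Hochberg adjusted over 54 tests. UMIs summed per animal, over all kept cells, over cells with at least 3 members and over Schwann-like cells (the last 2 in animals with at least 20 such cells), were fitted with edgeR 4.0.16 (R 4.3.3; glmQLFit, TMM, filterByExpr) with adjustment over all genes and a threshold of 0.05; DESeq2 1.42.0 was an alternative. The Schwann-like fit was added after the data were seen. Thinning drew 2000 UMIs per cell. The edgeR fits were tested on simulated counts. Ratios to other cells had 20 CPM added. Named genes were the members, list genes called in the cells with at least 3 members (up to 5 per list and comparison), the 10 with the highest ratio per age and the 5 most alike over animals; others are marked as picked later. Some genes these rules name are not reported here.

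The libraries held 1612 to 13488 barcodes. Same-numbered animals of different groups are different animals: over 48 such pairs the median correlation of deviations was -0.037, and over 177 other pairs 0.018, so the numbers are names and not a pairing. The cells with at least 3 members were compared at term only in the alternative with animals of at least 10 such cells, since only 1 WT lamb had at least 20.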

Additional observations from a re-analysis of the deposited data

Results flagged for a closer look

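In the groups of 4 animals, the share of cells with each member and with at least 3 members was examined for an animal that stood apart from the other 3, by Dixon's ratio at its 95% critical value. Of 27 groups and measures 3 stood apart, where chance gives about 1 in 20. S100B in the WT fetuses at 80 days was highest in animal 1, at 9.86% of cells. SOX10 in the WT lambs at term was highest in animal 1, at 1.39% of cells. S100B in the WT lambs was also highest in animal 1, at 16.6% of cells, and this lamb had the largest duct-like share of the WT lambs, 29.8%; the part of that share in both values was not tested.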

How the results depend on the processing

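Of 752 values recomputed under another setting without leaving out an animal, 691 kept their direction and their side of the threshold, or stayed within 1.5-fold where they were counts; 24 changed direction. In no case was the cause tested. Of the log2 ratios of shares, the share with at least 3 members changed sign at term (-0.0146) and in WT from 80 to 120 days (0.10) when 2 members sufficed, and at term with naturally bred lambs only (-0.24), where SOX10 also did (-0.32). With all deposited barcodes ERBB3 at term was 0.0447, GFRA3 in WT from 120 days to term -0.0893 and S100B in cloned CF by age -0.30. Under 10% MT- UMIs ERBB3 at term was 0.0106, GFRA3 in WT from 80 to 120 days 0.0456 and S100B in cloned CF by age -0.0318. Thinned, ERBB3 and GFRA3 at 120 days were 0.56 and 0.57, SOX10 and ERBB3 at term -0.52 and 0.43, and SOX10 in cloned CF by age 0.00803. Without the 5% of cells with most UMIs GFRA3 in WT from 120 days to term was -0.0295, and with library B only ERBB3 at term was 0.0347. In the fit of all kept cells ERBB3 at term was 0.0054 with no filter, and in the Schwann-like fit NGFR in WT by age was 0.00183 by DESeq2.

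Members called in all kept cells by DESeq2 numbered 4 at 80 days, 1 at 120 days and 1 in WT from 80 to 120 days (S100B), and in Schwann-like cells 1 at 80 days, beside 1.17%, 1.17%, 2.97% and 1.03% of all genes; with animals of at least 10 cells, 0 were called in cloned CF by age. Genes called in cells with at least 3 members at 80 days, at 120 days, in WT by age, in cloned CF by age and in naturally bred CF numbered 27, 0, 5, 2 and 5; by DESeq2 they numbered 157, 6, 53, 133 and 39 and with no filter 545, 6, 87, 263 and 37. RLE size factors gave 3 in WT and 4 in cloned CF by age, and animals with at least 10 cells gave 51 at 80 days, 15 in cloned CF by age, 0 in naturally bred CF and, where 20 cells allowed no fit, 63 between CF and WT at term.

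With the animal number as a replicate block, which pairs no animals, 0 members were called at 80 days and 0 in cloned CF by age in all kept cells, and 0 in Schwann-like cells in cloned CF by age. Genes called in cells with at least 3 members numbered 14 at 80 days, 0 in WT by age, 1 in cloned CF by age and 0 in naturally bred CF. S100B at 120 days was -0.0350, ERBB3 at term 0.15, FOXD3 in naturally bred CF 0.00100, and in Schwann-like cells FOXD3 at 80 days -0.13 and in WT by age -0.0885. The block changed no other call of a member.

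Leaving out 1 animal at a time gave these ranges, in log2 of shares: at 80 days GFRA3 -0.0108 to 0.31; in WT from 80 to 120 days SOX10 -0.30 to 0.0366, ERBB3 -0.28 to 0.14 and GFRA3 -0.49 to 0.23; in cloned CF by age S100B -0.62 to 0.27; at 120 days S100B -0.53 to 0.37 and GFRA3 -0.71 to 0.00845; in WT from 120 days to term SOX10 -1.60 to 0.0583 and GFRA3 -0.39 to 0.45; at term SOX10 -0.32 to 1.98, S100B -0.90 to 0.24, ERBB3 -0.35 to 0.34 and at least 3 members -0.24 to 0.90. In the fit of all kept cells they were at 80 days GFRA3 -0.0839 to 0.35; in WT by age GFRA3 -0.00908 to 0.53 and then -0.41 to 0.83; in cloned CF by age S100B -0.28 to 0.81 and GFRA3 -0.48 to 0.0614; at 120 days S100B -0.46 to 0.50; in naturally bred CF S100B -0.31 to 0.14, ERBB3 -0.00108 to 0.32 and EGFL8 -0.0746 to 0.56; at term CDH19 -0.23 to 1.38, S100B -0.56 to 0.26 and ERBB3 -0.25 to 0.22. Members called ran from 0 to 1 at 80 days, 0 to 2 in cloned CF by age, 0 to 1 in WT from 120 days to term (NGFR, without WT_term animal 2) and 0 to 1 in Schwann-like cells in cloned CF by age. Genes called in cells with at least 3 members ran from 3 to 191 at 80 days, 0 to 2 in WT by age, 0 to 178 in cloned CF by age (178 without cloned animal 3) and 0 to 0 in naturally bred CF. Where a group was left with 1 animal, that animal was taken to vary like the others.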

Other observations

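At 80 days a further cluster, which took no name from the marker lists, was led by the neuronal genes STMN2 and PRPH and by GAL. It held 37 cells, 30 from CF and 7 from WT fetuses, with a median of 3313 UMIs. Of the 37, 59.5% came from the library of 1 CF fetus. NGFR and GFRA3 were each seen in 8 of these cells, EGFL8 in 7, S100B in 2, and SOX10 and ERBB3 in 1 each. FOXD3 and CDH19 were seen in 0 of the 37, and 1 cell had at least 3 members.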
